A study of Mus musculus with 86 samples.

Results

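The Diras1 reporter oligos tile the 3′ untranslated region (UTR) of the mouse gene Diras1 and were measured in a massively parallel reporter assay (MPRA), in an RNA Bind-n-Seq (RBNS) experiment and in a SLAM-seq experiment. The members were all oligos whose name carries the symbol Diras1, which gave 640 of the 11955 oligos of the pool. Of these, 362 carried the unmutated sequence and 278 were companions of the same number in which the UG-rich motifs were mutated. The other 84 unmutated oligos had no companion. The pool holds oligos of 16 genes. All 640 Diras1 oligos were in the MPRA, 590 were listed in RBNS and 619 in SLAM-seq.

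Diras1 encodes a small GTPase of the Ras family that is expressed mainly in neural tissue. Sequence in a 3′ UTR can set where in a cell an mRNA accumulates and how long it lasts, through the RNA-binding proteins it recruits. TDP-43, encoded by Tardbp, is a mostly nuclear RNA-binding protein that prefers UG-rich RNA, and its loss from the nucleus is a hallmark of amyotrophic lateral sclerosis.

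The MPRA compared 4 groups of 4 libraries, from the soma and the neurites of CAD cells, a mouse neuronal line, carrying TetOff TDP-43. In these cells the endogenous Tardbp gene is inactivated in every arm, and TDP-43 comes from a single-copy transgene that doxycycline switches off, in lines grown from single cells. Cells without doxycycline (minus dox) are called wild type here, although they carry the transgene, and cells with doxycycline (plus dox) are called knockout. The labels give doxycycline at 2 µg/mL for 48 h. The reporter plasmids were transfected as a pool, and the cells were differentiated by removing serum and grown on a porous membrane whose underside holds the neurites. SLAM-seq used the same reporters and cells, labelled with 4-thiouridine (4SU). Wild-type cells had 2 libraries at 0 h and 3 at 12 h after the label was removed, knockout cells had 3 at each time, and 3 libraries were made without 4SU. RBNS mixed the RNA of the pool with recombinant TDP-43 and sequenced what was bound, with 1 input library, 1 library at 0 nM and 2 libraries each at 5, 50 and 500 nM. RNA-seq of the endogenous gene used 3 libraries per compartment and condition, from CAD and N2A cells (a mouse neuroblastoma line) with and without doxycycline, and from CAD cells with a Q331K TDP-43 or a WT TDP-43 transgene. Per the paper, the N2A line was built in the same way, with endogenous Tardbp inactivated and a transgene that doxycycline switches off. The Q331K and WT transgene lines instead keep endogenous Tardbp. There doxycycline induced the transgene in both arms, and endogenous TDP-43 went down. The labels do not say that replicates came from separate cultures, so p-values measure the spread between these samples, which may be technical.

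Each oligo is 260 bases long and starts 6 bases after the one before it. The sites at which the companions were mutated placed every Diras1 oligo on transcript Diras1-201 (ENSMUST00000055125, GENCODE vM21). The oligos cover 2426 bases of the minus strand of chromosome 10 in GRCm38, from 81021917 down to 81019492. The first 99 of these bases are the end of the coding sequence with its stop codon, the next 2230 are the annotated 3′ UTR (81019589 to 81021818), and the last 97 lie past the annotated end of the transcript. The motif UGUGU was mutated to ACACA in the companions, the motif GUGUG was mutated to CACAC, and the motif GUAUG was mutated to CAUAC. Merged where they overlap, they form 23 sites with 150 motif bases.

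Some of the sites in the stretches described below are printed with their flanks from GRCm38, in the sense of the mRNA, 5′ to 3′ and with T for U. Capitals mark the motif bases. Sites 7 and 10 lie in the upstream stretch in which reporters changed in both compartments, sites 15 to 20 lie in the stretch in which they changed most in neurites, and site 1 stands for the isolated short sites of the first part of the UTR.
Site 1, chr10:81021361-81021388: atctctgtcccTGTGTGcccagccatgc
Site 7, chr10:81020634-81020661: ttatgtgccTGTGTGTGTGgatgggtgt
Site 10, chr10:81020544-81020572: aagtggccGTGTGTGTGTGTGgggggggg
Site 15, chr10:81020267-81020295: gagagtgaGTGTGTGTGTGTGaaggggga
Site 16, chr10:81020247-81020275: gaagggggagaGTGTGTGggggaagagtg
Site 17, chr10:81020215-81020243: gagatagagtGTATGTGTGagagggaggg
Site 18, chr10:81020173-81020200: aatgagagagaGTGTGTattggaaggga
Site 19, chr10:81020148-81020176: gggagagagagaGTGTGagagagtgtgag
Site 20, chr10:81020138-81020166: gagtgtgagagaGTGTGagagagagacag
Sites 10 and 15 hold the same 13 motif bases, a run of alternating G and U, in different surroundings. Site 17 is the one of these that holds GUAUG. Site 10 was whole in oligos 186 to 226, site 15 in oligos 232 to 272, site 17 in oligos 240 to 281 and site 18 in oligos 247 to 289. Site 7 was whole in oligos 171 to 211. Site 8, which is not printed and has 8 motif bases, was whole in oligos 173 to 214. The upstream stretch of change covered those same oligos, so site 10 was whole in only part of it and also in oligos beyond it.

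Tardbp was lower in knockout than in wild-type libraries in every compartment of the RNA-seq, with no overlap. In CAD soma it was at 669 to 1002 TPM in wild-type and 115 to 159 TPM in knockout libraries (TPM is a level scaled to transcript length and library size), and in N2A soma at 756 to 982 and 235 to 263 TPM. The neuronal markers Tubb3 (151 to 557 TPM) and Gap43 (59.9 to 399 TPM) were present in every library, while the neurofilament genes Nefl and Nefm stayed at or under 0.15 and 0.0588 TPM and the glial markers Aqp4, Aldh1l1 and Gfap at or under 0.187, 1.13 and 3.01 TPM. The MPRA libraries held 7923270 to 12208997 unique molecular identifiers (UMIs), the RBNS libraries 1806779 to 9646262 reads and the SLAM-seq libraries 10782983 to 33024830 reads. Diras1 oligos made up 4.025 to 5.115% of the UMIs of an MPRA library.

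Some limits of the libraries bear on single oligos. In 40 of the 278 pairs (oligos 64 to 76, 123 to 133, 161, 295 to 299 and 353 to 362) no mutated base lay within 90 bases of an end of the oligo. Across these 40 pairs the log2 ratio of the UMIs of the unmutated oligo to its companion had an interquartile range of 0.0798, against 0.919 in the other 238, so the counts of these pairs say little of the difference between the sequences. In SLAM-seq, replicate 1 of the knockout cells at 12 h stood apart within its group, with 1.37% of T positions read as C. The other 2 had 0.47 and 0.51%, and results that rest on replicate 1 are given with and without it. The wild-type libraries at 12 h had 1.17, 1.17 and 1.33%, near replicate 1. Which of the knockout libraries is atypical was not tested. The libraries without 4SU had 0.24, 0.19 and 0.16%, so the other 2 knockout libraries lay nearer the background. In RBNS, the unmutated oligos 235 to 243 had 0 reads in the input library, and oligos 254 to 272 had a median of 2.

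The first question was which segments of the UTR let a reporter accumulate in neurites once TDP-43 was lost. A single stretch of the UTR did so strongly. The localization ratio (LR) is log2 of neurite over soma, and a change in LR is its value in knockout minus that in wild-type cells. At an adjusted p under 0.01 (edgeR's quasi-likelihood test, adjusted over the pool), 44 of the 362 unmutated oligos rose in LR and 0 fell, where 5.15% of the 11918 oligos tested rose and 0.277% fell. They were oligos 191, 244 to 282 and 284 to 287. At an unadjusted p under 0.05, 74 of the 362 passed in either direction. Counts of oligos or pairs at an unadjusted p are given here and below without the pool's share, so nothing is read from them. The median change in LR was 0.02 over all 362, and -0.01 over the pool. None of the 84 oligos without a motif was called.

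Oligos 244 to 282, which are 39 in a row, had a median change in LR of 3.11, from 0.67 to 3.91. The bases common to all 39 are positions 1687 to 1718 of the tiled sequence, 32 bases that begin within site 17 and end before site 18. Oligo 260, which holds sites 15 to 20 whole, had the highest change in LR of the Diras1 oligos.
In neurites it was counted at 34.6, 34.4, 33.3 and 32.8 CPM (UMI counts scaled by library with TMM) in the 4 wild-type libraries and at 1000, 938, 1175 and 1171 CPM in the 4 knockout libraries. In soma it was at 32.8, 30.4, 23.9 and 21.8 CPM in wild-type and 50.3, 56.8, 63.6 and 58.2 CPM in knockout libraries. Thus the groups did not overlap in either compartment, and the knockout libraries were higher by far more in neurites than in soma. By edgeR's quasi-likelihood test the change was 4.99 in neurites (log2, SE 0.101, adjusted p = 2.4e-23) and 1.07 in soma (SE 0.105, adjusted p = 8.37e-09), and the change in LR was 3.91 (SE 0.145, adjusted p = 1.2e-16).

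The mutated companion of oligo 260 showed none of this rise. It was counted at 69.6, 67.8, 64.5 and 61.9 CPM in wild-type neurites and at 47.3, 42.6, 45.6 and 42.7 CPM in knockout neurites. In soma it was at 31.8, 32.3, 33.9 and 26.9 CPM in wild-type and 31.2, 30.7, 33.5 and 34.3 CPM in knockout libraries. Its neurite groups did not overlap, with the knockout libraries lower, while its soma groups did overlap. Its change in LR was -0.62 (SE 0.0978, adjusted p = 3.88e-05 by edgeR). The difference between the pair in the change in LR, taken within each library, was 4.51 (SE 0.141, adjusted p = 2.28e-14 by limma), the largest of the Diras1 pairs.

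Of the 278 pairs, 43 differed in the change in LR with the unmutated oligo higher (244 to 283 and 285 to 287, by 0.48 to 4.51) and 0 with it lower, where 7.28% of the 4547 pairs of the pool were higher and 0.022% lower. With at least 100 UMIs in every library for both members, 246 pairs were left and 21 of them were called. A pair under that minimum was not tested, so it could not be called. Companions in part of the stretch had low counts. In wild-type soma, mutated oligos 261 to 280 had a median of 43.8 UMIs, against 230 for the unmutated ones. None of the 40 pairs with mutations only near the middle was among the 43, and 43 of the other 238 were.

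The change in LR rose and fell in steps along the stretch. It was 0.38 at oligo 243 (adjusted p = 0.175), 0.67 at oligo 244 (SE 0.13, adjusted p = 0.000616) and 2.52 at oligo 248. Oligo 244 was at 30.0, 44.9, 44.9 and 40.9 CPM in wild-type neurites and at 92.3, 99.0, 93.8 and 94.5 CPM in knockout neurites. Its soma libraries were at 35.7, 32.6, 36.3 and 42.0 CPM in wild-type and 51.6, 59.2, 57.6 and 51.3 CPM in knockout cells. The groups of oligo 244 did not overlap in either compartment, and its companion had a change in LR of -0.07 (adjusted p = 0.948).
Oligos 254 to 272 formed the top of the stretch. Their changes in LR lay between 3.25 and 3.91 with a median of 3.65, while those of their 19 companions lay between -1.11 and -0.11 with a median of -0.62. The median of log2 neurite over soma across these 19 unmutated oligos was 0.68, 0.62, 0.87 and 0.91 in the 4 wild-type replicates and 4.33, 4.22, 4.33 and 4.55 in the 4 knockout replicates. For the companions it was 1.97, 1.43, 1.85 and 1.35 in wild-type and 0.89, 0.93, 0.71 and 0.95 in knockout replicates. The arms did not overlap for either set, and they moved in opposite directions. These oligos overlap by all but a few bases, so they are not independent measurements.

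The change in LR then dropped from 3.65 at oligo 272, the last to hold site 15 whole, to 3.11 at oligo 273 and 2.16 at oligo 274. It was 1.57 at oligo 281, the last to hold site 17 whole, 0.80 at oligo 282 (SE 0.112, adjusted p = 5.19e-06) and 0.37 at oligo 283 (adjusted p = 0.0497). Oligos 284 to 287 were called again with changes of 0.64 to 0.81, and oligo 288 had a change of 0.22. Oligo 282 was at 143, 157, 158 and 135 CPM in wild-type neurites and at 333, 298, 373 and 372 CPM in knockout neurites. In soma it was at 24.8, 27.6, 30.4 and 27.0 CPM in wild-type and 34.1, 35.9, 41.5 and 35.3 CPM in knockout libraries. Its companion had a change in LR of -0.42 (adjusted p = 0.0689), and the pair differed by 1.20 (SE 0.127, adjusted p = 4.3e-07 by limma).

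Part of the fall toward the downstream end came with a higher LR in wild-type cells. In wild-type cells 35 of the 362 unmutated oligos were enriched in neurites (235, 236, 259 and 261 to 292) and 3 in soma (34, 35 and 43), where 2.57% and 1.48% of the pool were. Oligos 261 to 292 had a median LR of 1.45 in wild-type cells, from 0.31 to 2.73, and the highest value was that of oligo 284. Oligo 260 had an LR of 0.32 without and 4.23 with doxycycline, while oligo 282 had 2.43 and 3.23. In knockout cells 57 oligos were enriched in neurites and 11 in soma, against 5.82% and 1.22% of the pool. The 53 oligos from 240 to 292 formed a run in knockout cells, with a median LR of 3.37.

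Of the 278 mutated companions, 29 were themselves enriched in the neurites of wild-type cells (254 and 257 to 284) and 0 in soma, where 2.57% and 1.48% of the pool were. The median LR of all 278 was -0.02. Oligo 265 mutated had the highest, with 84.4, 79.1, 73.7 and 79.2 CPM in neurites against 8.69, 10.2, 9.43 and 8.5 CPM in soma, an LR of 3.10 (SE 0.0835, adjusted p = 2.84e-18 by edgeR). In knockout cells it was at 33.6, 30.2, 35.1 and 38.4 CPM in neurites and 7.34, 8.8, 9.57 and 9.04 CPM in soma. Its neurite groups did not overlap, and its change there was -1.20 (SE 0.0748, adjusted p = 6.7e-13), while its change in soma was -0.09 (adjusted p = 0.757). Its change in LR was -1.11 (SE 0.134, adjusted p = 4.4e-07). The unmutated oligo 265 had an LR of 1.12 in wild-type cells and a change of 3.29.
In all, 11 of the 278 companions fell in LR and 0 rose, where 0.277% of the pool fell. They were oligos 258 to 266, 274 and 277, all of them companions of unmutated oligos that rose, and their changes ran from -1.11 at oligo 265 to -0.56 at oligo 258. Oligo 274 had a change of -0.96 (adjusted p = 0.00648) and oligo 277 of -0.58 (adjusted p = 0.00264). Companion counts were low here, with a median of 43.8 UMIs in wild-type soma across mutated oligos 261 to 280. That limits the precision of their changes in LR and of their wild-type LRs. In neurites 18 companions fell and 0 rose, where 0.696% of the pool fell and 8.06% rose. In soma 0 of the 278 passed in either direction with edgeR, and 40 had an unadjusted p under 0.05.

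A second question was in which compartment reporters changed. Upstream of the stretch above, a run of oligos rose in both compartments by similar amounts. In neurites 91 of the 362 unmutated oligos rose in knockout cells (173 to 177, 179 to 214, 240 to 288 and 294) and 3 fell (95, 96 and 290), where 8.06% of the pool rose and 0.696% fell. In soma 80 rose (173 to 177, 179 to 213, 242 to 278 and 280 to 282) and 0 fell, where 7.55% of the pool rose and 0.101% fell. None of the 84 oligos without a motif rose in either compartment.

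Oligos 173 to 214 held a median change of 0.64 in neurites and 0.55 in soma, with 41 and 40 of the 42 called, and their companions had medians of -0.08 and -0.09. Their median change in LR was 0.11, and the only call in LR among them was oligo 191 at 0.27 (SE 0.058, adjusted p = 0.00223). The difference from the companions in the change in LR had a median of 0.08, with 0 of 42 pairs called. The median log2 neurite over soma was -0.16, -0.04, -0.09 and -0.11 in the wild-type and 0.04, 0.02, -0.01 and -0.02 in the knockout replicates, so the arms did not overlap but lay close together.
Oligo 198, which holds sites 5 to 13, was at 165, 165, 169 and 177 CPM in wild-type neurites and 278, 289, 287 and 278 CPM in knockout neurites. In soma it was at 181, 170, 183 and 189 CPM in wild-type and 264, 272, 252 and 275 CPM in knockout libraries. The arms did not overlap in either compartment. The changes were 0.74 in neurites (SE 0.0447, adjusted p = 3.13e-13) and 0.56 in soma (SE 0.0435, adjusted p = 1.01e-10), and the change in LR was 0.19 (SE 0.0622, adjusted p = 0.104 by edgeR).
Its companion was at 94.3, 81.4, 90.8 and 85.1 CPM in wild-type and 81.6, 82.6, 85.8 and 81.1 CPM in knockout neurites. In soma it was at 89.9, 87.1, 87.0 and 87.1 CPM in wild-type and 92.2, 89.4, 65.6 and 87.3 CPM in knockout libraries. The companion's arms overlapped in both compartments, with changes of -0.09 in neurites (adjusted p = 0.561) and -0.07 in soma (adjusted p = 0.707).

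Both stretches were rich in motifs. In windows of 20 oligos, the median oligo of the bins 181 to 200 and 201 to 220 held 53 and 55 motif bases and was 66.2 and 66.9% G or U. In the bins 241 to 260 and 261 to 280 the median oligo held 43 and 45 motif bases and was 63.1 and 57.7% G or U. The median changes in LR of these 4 bins were 0.14, 0.09, 2.72 and 3.33, and the median changes in soma were 0.56, 0.41, 0.88 and 1.16. Between them, oligos 215 to 234 had median changes of 0.07 in LR and -0.01 in soma, with 0 called in LR, neurites or soma. Of these, oligos 215 to 226 still hold site 10 whole. From oligo 315 to the end of the tiling the median change in LR was -0.02.

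RBNS asked which oligos recombinant TDP-43 bound in the test tube. R is an oligo's share of the reads in a bound library over its share in the input, with 0.5 added to each count. At 500 nM, 92 of the 297 unmutated oligos tested were above the input and 9 below at an adjusted p under 0.05 (edgeR), where 12.3% and 29.2% of the 11025 oligos tested were. Of the 258 companions tested, 43 were above and 26 below. The median log2 R was 1.04 for unmutated oligos and 0.28 for companions. In the replicates at 500 nM the median R was 2.28 and 1.77 for unmutated oligos, 1.35 and 1.07 for companions and 0.65 and 0.715 for the pool. In the library without protein the medians were 1.14, 1.19 and 0.89, so Diras1 oligos were above the pool there too. With 1 library at 0 nM and 1 input library, that difference has no replicate check.

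The unmutated oligos above the input at 500 nM included 4 runs of at least 5, which were 171 to 198 (median log2 R 2.58), 205 to 218 (2.47), 221 to 227 (2.36) and 284 to 296 (2.19). Others lay apart, such as 18 of the 67 oligos from 41 to 107, where 21 of the 43 companions were above the input too. Oligo 198, with 74 input reads, had R of 6.22 and 3.61 at 500 nM, 3.83 and 5.07 at 50 nM, 0.949 and 1.23 at 5 nM and 0.648 at 0 nM. Its companion, with 715 input reads, had R of 1.41 and 1.23 at 500 nM, 1.5 and 1.78 at 50 nM and 0.832 at 0 nM. The unmutated oligo was thus above its companion in each replicate at 500 and 50 nM and not at 0 nM. The pair differed by 1.85 at 500 nM on the log2 scale (SE 0.318, adjusted p = 0.013 by limma).
At 500 nM 52 of 231 pairs differed with the unmutated oligo higher and 5 with it lower (303, 305, 307, 311 and 314), where 13.3% and 2.62% of the 3892 pairs of the pool were. Most of the 52 lay between 171 and 223, where the groups of sites around sites 7 and 10 are, and 39 of the 42 pairs of oligos 173 to 214 were among them, with a median difference of 2.72. The median log2 R at 500 nM of oligos 173 to 214 was 2.60 with the motifs and -0.05 without them, while 0 of these 42 pairs differed in the change in LR.

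Binding of the stretch with the highest changes in LR could hardly be measured. None of the unmutated oligos 235 to 265 had enough reads to be tested. Oligo 260 had 2 input reads, R of 0.875 and 0.609 at 500 nM, 0.273 and 0.444 at 50 nM and 0.886 at 0 nM, and its companion had 3 input reads and R of 5.8 and 3.04 at 500 nM. At 2 or 3 reads these values have no useful precision. For oligos 254 to 272, 7 unmutated oligos and 10 companions were tested, with median log2 R of 2.23 and 2.36 at 500 nM and 0 calls.
Just downstream the input was deeper. Oligo 282, with 79 input reads, had R of 5.34 and 4.08 at 500 nM, 1.63 and 3.7 at 50 nM and 0.708 at 0 nM. For oligos 288 to 294, the 7 unmutated oligos and the 7 companions were all above the input at 500 nM, with median log2 R of 2.07 and 2.05, and 0 of these pairs differed.

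At 50 nM 100 unmutated oligos and 91 companions were above the input and 0 below, where 11.5% of the pool was above and 31.4% below. The median log2 R was 1.06 and 0.80. The number of unmutated oligos called at 50 nM was 42 without replicate 2, 180 with DESeq2 and 179 with TMM scaling. The runs at 50 nM were oligos 58 to 62 (median log2 R 1.57), 108 to 119 (1.52), 171 to 194 (2.15) and 205 to 218 (2.55). Oligos 108 to 119 were above the input at 50 nM with and without motifs (12 of 12 in both sets, medians 1.52 and 1.62), while their median at 500 nM was -0.10 in both sets. Oligo 108, with 205 input reads, had R of 2.23 and 2.61 at 50 nM, 1.35 and 1.11 at 500 nM and 1.9 at 0 nM, so its value without protein was above those at 500 nM. At 5 nM 0 Diras1 oligos passed with edgeR, where 0.0272% of the pool was above the input and 0.0181% below. At an unadjusted p under 0.05, 33 unmutated oligos and 30 companions did, and DESeq2 called 4 and edgeR with TMM scaling 2.

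Oligos 315 to 362 lay at the other end. Their median log2 R at 500 nM was -2.32, and that of their companions was -2.32 too. Oligo 345, with 92 input reads, had the lowest value, with R of 0.0439 and 0.00548 at 500 nM (log2 -5.37, SE 1.7, adjusted p = 0.0264 by edgeR), 0.0813 and 0.0839 at 50 nM and 0.00479 at 0 nM. In the library without protein 28 of the 47 unmutated oligos of this stretch that RBNS lists had 0 reads. Over the pool, 10673 oligos had reads in that library and 11317 in the input. The low values of this stretch were thus also present without TDP-43. Set against 0 nM in place of the input, the value of oligo 345 turned to 4.13.
The highest fitted value was that of oligo 36, which had 0 input reads and a log2 R of 6.63 (SE 2.98, adjusted p = 0.0961), with R of 43.1 and 7.1 at 500 nM and 13.3 at 0 nM. Oligo 333 had the highest change in LR among oligos with R at 500 nM under the pool's median, at 0.39 (adjusted p = 0.214). Oligo 200, with 10 input reads, had the highest called R at 500 nM among oligos with no call in LR, with R of 12.2 and 9.52 (log2 3.49, adjusted p = 0.0257).
Across the 297 unmutated oligos tested in both assays, log2 R at 500 nM and the change in LR had Pearson's r of 0.25 and Spearman's rho of 0.31, and log2 R and the change in soma had 0.48 and 0.55. These are descriptions across overlapping oligos that share libraries, and they leave out most of the stretch with the highest changes in LR.

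SLAM-seq asked whether the reporters' RNA lasted longer without TDP-43. 4SU taken up in a 24 h pulse marks new RNA and is read as T-to-C conversions, which fall as labelled RNA decays during the chase. Values were taken relative to the median oligo of each library, and label retention is the log2 odds of conversion at 12 h against 0 h. Of the Diras1 oligos, 319 unmutated and 230 mutated ones had enough T positions read, with a median of 30933 per oligo and library. With all 11 labelled libraries, 0 of them differed in label retention between knockout and wild-type cells by edgeR at an adjusted p under 0.05, where 0.0% of the pool did. At an unadjusted p under 0.05, 55 unmutated oligos and 16 companions passed, and the lowest adjusted p was 0.216. The median difference was 0.20 for unmutated oligos and 0.06 for companions.

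The result depended on replicate 1 of the knockout cells at 12 h. Without it, 82 unmutated oligos kept more label in knockout cells relative to the pool and 2 kept less, where 12.1% and 7.83% of the pool did. Of the companions, 32 kept more and 3 less. The knockout libraries left at 12 h had 0.47 and 0.51% conversions, against 0.24, 0.19 and 0.16% without 4SU. No background was subtracted in this fit. Among the unmutated oligos, 60 of the 244 with a companion and 22 of the 75 without a motif kept more. Oligo 259 had the highest difference in label retention. It had 1.64 and 1.56% conversions in wild-type cells at 0 h and 0.677, 0.689 and 0.753% at 12 h. In knockout cells it had 1.41, 1.3 and 1.22% at 0 h and 1.08, 0.588 and 0.73% at 12 h, where the first value is that of the library that stood apart. Without 4SU it had 0.185, 0.214 and 0.123%. The difference was 1.16 (SE 0.285, adjusted p = 0.22) with that library and 1.53 (SE 0.202, adjusted p = 6.22e-05) without it, by edgeR.
The wild-type and knockout percentages of oligo 259 overlapped at 12 h. Over all oligos, however, the other knockout libraries had 0.47 and 0.51% conversions and the wild-type libraries 1.17, 1.17 and 1.33%, so relative to its library this oligo was higher in knockout cells. The same held for oligos 254 to 272, with medians of 0.785, 0.739 and 0.78% in wild-type and 1.15, 0.578 and 0.646% in knockout cells at 12 h. Their companions had 1.04, 0.94 and 1.12% in wild-type and 1.36, 0.41 and 0.376% in knockout cells. With all libraries the median difference in label retention was 0.73 for the 19 unmutated oligos and 0.32 for the 11 companions tested, with 0 called in either set. Without the library that stood apart the medians were 1.03, with 12 of the 19 called, and 0.03, with 0 of the 11 called.

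Oligo 260 had differences of 0.52 (adjusted p = 0.549) with that library and 0.79 (SE 0.258, adjusted p = 0.0393) without it, and its companion of 0.39 (adjusted p = 0.731) and 0.03 (adjusted p = 0.981). Oligo 198 had differences of 0.34 (adjusted p = 0.362) and 0.38 (SE 0.0837, adjusted p = 0.00424), and its companion of -0.38 (adjusted p = 0.504) and -0.48 (adjusted p = 0.0299). The lowest unmutated value was that of oligo 230, at -0.67 (adjusted p = 0.523) with all libraries and -0.92 (adjusted p = 0.107) without that library. The pairs themselves were tested too. With all libraries 0 of 229 pairs differed by limma, where 0.0% of the pool did and 27 had an unadjusted p under 0.05. Without the library that stood apart 4 differed, where 0.543% of the pool was higher and 1.4% lower, and they were oligos 195 (0.79), 197 (0.83), 198 (0.85) and 236 (1.35).

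In the first part of the UTR the differences were alike with and without motifs. With all libraries, oligos 41 to 107 had a median difference of 0.28 for unmutated oligos and 0.31 for companions, with 0 called, and oligos 1 to 40, which hold no motif, had 0.22. Without the library that stood apart, the medians of oligos 41 to 107 were 0.45 (37 of 57 called) and 0.53 (23 of 33 called), and oligos 1 to 40 had 0.43. These differences are relative to the pool. The unmutated oligos 41 to 107 had median conversions at 12 h of 1.33, 1.39 and 1.53% in wild-type cells. In knockout cells they had 1.57% in the library that stood apart and 0.69 and 0.749% in the others. None of the oligos from 1 to 107 was called higher in LR. Without 4SU the unmutated oligos 41 to 107 had medians of 0.297, 0.265 and 0.205% conversions, against 0.24, 0.19 and 0.16% over all oligos. That background was not subtracted. Site 1 lies in this stretch, and oligo 62 had a difference of 0.39 (adjusted p = 0.466) with that library and 0.54 (adjusted p = 0.000482) without it, and its companion of 0.43 (adjusted p = 0.469) and 0.56 (adjusted p = 0.00425).
Within a genotype, 0 Diras1 oligos differed from the pool's median label loss in wild-type cells by edgeR, where 0.00946% of the pool lost more, and 59 unmutated oligos and 12 companions had an unadjusted p under 0.05. In knockout cells 43 unmutated oligos kept more label than the pool's median and 4 less, where 10.2% and 6.05% of the pool did. The runs were oligos 52 to 63 and 93 to 97, each with a median of 0.46. These calls depended on single libraries. Leaving out the library that stood apart, 102 kept more and 25 less, where 23.8% and 19.1% of the pool did. Without any 1 of the other 5 knockout libraries, and with limma after subtracting the background, 0 were called. Without replicate 1 or 2 of the wild-type cells at 0 h, 23 and 24 were called in either direction. Without the library offset 301 were called, all with less label kept. That fit measures the whole loss of label and not the loss relative to the pool, so its count is not comparable.

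The endogenous mRNA was set beside the reporters. Transcript ENSMUST00000055125, whose 3′ UTR the oligos tile, was at 2.54, 3.53 and 3.79 TPM in wild-type and at 229, 307 and 278 TPM in knockout neurites of CAD cells. In soma it was at 5.73, 8.43 and 9.06 TPM in wild-type and 6.61, 7.73 and 9.17 TPM in knockout libraries. The neurite groups were far apart and the soma groups overlapped. In wild-type cells the TPMs were lower in neurites than in soma. The LR of the gene there, from TMM-scaled counts, was nonetheless 0.46 (SE 0.103, adjusted p = 0.00131 by edgeR). The direction of the wild-type LR thus depends on the scaling, and the reason was not tested. For the gene, the change in soma was 0.21 (log2, SE 0.102, adjusted p = 0.13 by edgeR), the change in neurites 6.17 and the change in LR 5.95 (SE 0.148, adjusted p = 7.13e-13), where 0.225% of 17343 genes rose and 0.208% fell. The reporters of the stretch from 254 to 272 rose in soma by 1.05 to 1.56, and all 19 were called there. Reporter values are relative to the pool and come from a transfected plasmid, so the sizes in the gene and the reporters were not tested against each other.

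In N2A cells the transcript was at 6.83, 13.6 and 12 TPM in wild-type and 136, 253 and 130 TPM in knockout neurites, and at 11.7, 14.5 and 16.9 TPM in wild-type and 17, 19.7 and 21 TPM in knockout soma. Neither compartment overlapped between genotypes. The wild-type LR of the gene from TMM-scaled counts was 1.08 (SE 0.188, adjusted p = 0.000121 by edgeR), again with neurites higher, unlike the TPMs. The change in LR was 3.30 (SE 0.265, adjusted p = 1.69e-05), where 0.0893% of 17912 genes rose and 0.0112% fell, and the change in soma was 0.56 (SE 0.188, adjusted p = 0.035). Without replicate 2 the change in LR was 3.20 and no longer passed the threshold of 0.01 (adjusted p = 0.0148).
With the Q331K TDP-43 transgene the transcript was at 3.04, 4.36 and 2.44 TPM in neurites and 6.06, 6.19 and 5.89 TPM in soma. With the WT TDP-43 transgene it was at 3.12, 2.73 and 3.47 TPM in neurites and 8.36, 7.55 and 7.00 TPM in soma. The neurite groups overlapped, while the soma groups did not, with Q331K lower. For the gene, the difference was 0.12 in neurites (adjusted p = 0.862 by edgeR) and -0.26 in soma (SE 0.159, adjusted p = 0.775). The difference in LR was 0.38 (SE 0.232, unadjusted p = 0.121, adjusted p = 0.999 by edgeR), with 0.0% of 13940 genes called. The shorter transcript ENSMUST00000144640 stayed at or under 1.87 TPM and was listed at 0 in 26 of 36 libraries.
Of 20 listed small GTPases and regulators near Diras1, such as Diras2 and the Rap genes, 15 were tested in CAD cells and 0 were called, with a median change in LR of -0.05 against -0.01 over all genes. In N2A cells 14 were tested and 0 called, with a median of -0.36 against -0.01 over all genes, and the lowest adjusted p was that of Rheb, an activator of mTORC1, at 0.0289 with a change of -0.52. With the transgenes 15 were tested and 0 called, with a median of 0.11.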

How the data were processed

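Per the labels and the study's methods, reads of the oligos were trimmed with cutadapt and mapped by bowtie2 to the designed pool, and the authors deposited counts per oligo, of unique UMIs for the MPRA and of reads for RBNS. The UMI has 8 bases, so 65536 are possible and the highest oligo, at 32009, is undercounted. The SLAM-seq values deposited are counts of T positions with and without a conversion to C, made with a modified PIGPEN. For RNA-seq the authors quantified each transcript with salmon, as a TPM and an estimated count. The labels name mm10. The version of each tool was not given in the sources used here.

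Oligo counts were tested over the whole pool with edgeR 4.0.16 in R 4.3.3 (TMM and filterByExpr by group for the MPRA, adjusted p under 0.01), and RBNS counts were scaled to total reads (adjusted p under 0.05). The single input library was assumed to vary like the other libraries. SLAM-seq used modelMatrixMeth on oligos with at least 1000 T positions in each of the 11 labelled libraries, with the library's median log odds as an offset. Pairs were tested with limma 3.58.1 on log2 ratios within libraries. Estimated counts were summed to genes with GENCODE vM21 and rounded, and 9771564 to 32864234 counts were held per library, of which at most 0.1294% fell on transcripts without a gene. TPM values were only printed. The paper's methods give doxycycline at 1 µg/mL, unlike the labels.

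The fits were tested on simulated data. They recovered 198 of 200 changed oligos for the change in LR, 96 of 145 for the MPRA pairs, 177 of 200 changed by 4-fold for RBNS at 500 nM, 192 of 200 changed by 2-fold for SLAM-seq and 199 of 200 genes changed by 3-fold for CAD cells. In that order they also called 2, 0, 10, 7 and 2 unchanged ones. In the real SLAM-seq libraries 0 oligos were called, and the highest Diras1 difference, 1.16 (log2), did not pass. The SLAM-seq recovery is therefore not the power of that test here. Alternatives were other filters, minimums, thresholds, scalings and tools (DESeq2 1.42.0), a term for the replicate number and leaving out each replicate. The members, lists and tests were chosen with earlier results of these data known, and the groups of oligos (such as 254 to 272) were set after their values were seen. Named oligos are the first and last of each run of at least 5 called, the highest and lowest per assay, those called in an assay but furthest from a call in another, and their companions. Oligos named for a neighbouring step were chosen after their values were seen. Site sequences come from GENCODE transcripts and GRCm38. The oligos' own sequences, the plasmid pool and the libraries of human cells were not analysed here. Python 3.11.15, pandas 2.3.3 and numpy 2.4.6 were used.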

Additional observations from a re-analysis of the deposited data

Results flagged for a closer look

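The change in LR of endogenous Diras1 was larger in CAD than in N2A cells by 2.68 on the log2 scale (SE 0.337, adjusted p = 7.6e-05), as tested by the interaction of line, compartment and genotype with edgeR. In 2 groups of the mutated companion of oligo 198, a library stood apart from the other 3 by Dixon's criterion for 4 samples. In wild-type soma replicate 1 was at 89.9 CPM against 87.1, 87.0 and 87.1 CPM, with a gap of 0.957 of the range, and in knockout soma replicate 3 was at 65.6 CPM against 92.2, 89.4 and 87.3 CPM, with a gap of 0.839. They are 2 of the 28 groups tested, and chance gives about 1 in 20.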

How the results depend on the processing

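The counts of Diras1 oligos or pairs called were within 1.5 times the main count under 133 combinations of result and alternative, and moved further under 22, and 26 values of the endogenous gene kept their call. At least 100 UMIs gave 21 MPRA pairs in place of 43, with 246 pairs tested in place of 278. A threshold of 0.01 gave 63 oligos at 500 nM in place of 101, 44 at 50 nM in place of 100, 28 RBNS pairs in place of 57 and 0 for label loss in knockout cells in place of 47. At 50 nM DESeq2 called 180 oligos and TMM scaling 179, and leaving out 1 replicate gave 42 to 80, the lower without replicate 2. At 5 nM DESeq2 called 4, TMM scaling 2 and the main test 0. For label loss in knockout cells, limma on rates less the background called 0 and no library offset called 301, all lower. Without the offset the contrast is the whole fall of label and not the loss relative to the pool. It is thus another quantity and not a reversal. Leaving out 1 library gave 0 to 127 for label loss in knockout cells and 0 to 84 for the difference in label retention. It gave 0 to 23 for label loss in wild-type cells and 0 to 4 for the SLAM-seq pairs. In the cases other than the offset the cause was not tested. In N2A cells the change in LR without replicate 2 was 3.20 and lost its call at 0.01 (adjusted p = 0.0148), and leaving out 1 replicate gave 3.12 to 3.49. For oligo 345 the 0 nM library as the denominator gave 4.13. Of the values of named oligos, 2405 kept direction and side of the threshold, 56 passed newly, 43 no longer passed and 1 reversed. The change in LR called 40 to 44 oligos when 1 replicate was left out and 38 to 48 under the other settings. Soma and neurites of the same number had correlations of their deviations of -0.08 to 0.17 in the MPRA, -0.11 to 0.43 in CAD (0.35 to 0.43 without doxycycline), 0.06 to 0.36 in N2A and -0.09 to 0.26 with the transgenes, and RBNS and SLAM-seq had -0.26 to 0.09 and -0.02 to 0.01. In no experiment were all pairs over 0.1, so the numbers were not taken to pair samples, although some pairs in CAD and N2A deviated together. With a replicate block, 44 oligos were called for the change in LR, 96 in neurites, 83 in soma, 41 for LR in wild-type cells, 42 MPRA pairs, 78 at 500 nM, 75 at 50 nM, 48 RBNS pairs and 46 for label loss in knockout cells, and the endogenous changes were 5.95, 3.25 and 0.36. Depth limits the binding values, since 65 of the 362 unmutated oligos could not be tested, among them 235 to 265. The fit of human motor neurons was not run.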
